A study of Mus musculus with 12 samples.

Results

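Dusp1, Zfp36, Zfp36l1, Zfp36l2, Zc3h12a, Btg1, Btg2, Ier2, Ier3 and Ier5 are immediate early feedback genes and regulators of mRNA decay. They were found by symbol, as the rows of the count table whose Ensembl identifier maps to these names, and make up 10 of the 55401 gene rows. RNA-seq had been run on GFP-positive cells, labelled as astrocytes, that were sorted by flow cytometry from cortex and hippocampus of mice carrying CD51-Flp and the Flp-dependent reporter Rosa-CAG-FSF-tdTomato. CD51 is integrin alpha-v, the protein of Itgav, and Flp made under its control switches on tdTomato. The CD51+ groups (cortex and hippocampus) were tdTomato and GFP double positive, and the CD51- groups (cortex and hippocampus) carried GFP without tdTomato, with 3 libraries in each of the 4 groups. All mice shared both transgenes and no treatment is named, and the sources used here do not give their age or what drives GFP. The reporter marks any cell that has made Flp, in the present or earlier, and does not measure CD51 itself.

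Cells that answer a stimulus switch on, along with the effectors of the response, genes that end it. Dusp1 is a nuclear phosphatase that removes activating phosphates from the MAP kinases p38, JNK and ERK, which would otherwise keep inflammatory mRNAs stable. Zfp36 (tristetraprolin) and its paralogs Zfp36l1 and Zfp36l2 bind AU-rich elements in the 3′ untranslated region (3′ UTR) of short-lived mRNAs and bring in the CCR4-NOT complex, which removes the poly(A) tail. Zc3h12a (regnase-1) is an endonuclease that cuts stem-loops in the 3′ UTR of cytokine mRNAs, and Btg1 and Btg2 are antiproliferative proteins that bind the deadenylase subunit of CCR4-NOT. Ier2, Ier3 and Ier5 are small immediate early genes, switched on by growth factors, stress or cytokines without new protein synthesis. In the brain this programme is known from activated microglia and from stimulated neurons and astrocytes.

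The libraries held between 4351897 and 12847183 counted read pairs, and mitochondrial genes took a larger share of them in the CD51+ libraries (36.5% to 71.1%) than in the CD51- libraries (20.2% to 38.6%). In cortex CD51+ replicate 3, 58.4% of the counts fell on mitochondrial ribosomal RNAs, against at most 3.54% in any other library. The library names read G where the titles say CD51+ and GT where they say CD51-, names that could be read as the reverse assignment. Directions follow the titles, and each CD51 difference would change sign if the titles were crossed. Itgav did not separate the classes: its mean level was 584 ± 274 CPM (counts scaled to a common library size after TMM correction) in CD51+ cortex and 311 ± 56.7 CPM in CD51- cortex (SD, n = 3 each), with an edgeR adjusted p of 0.269, and in hippocampus the edgeR adjusted p was 0.984. Whether replicates are different mice is not said in the labels, and p-values here cover only library-to-library spread, which may be technical.

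All 10 genes had a lower mean level in CD51+ than in CD51- cells in both regions. They were chosen with earlier results of these data known, so the shares of calls below are descriptions. In cortex 8 of the 10 fell by the test across all genes (edgeR quasi-likelihood test, adjusted p under 0.05), where 6.27% of the 12613 tested genes were called lower. In hippocampus 6 of the 10 fell, against 2.7% of all tested genes, and over both regions together all 10 fell, against 13.9%. None was called higher in any of these comparisons, against 5.05% of all tested genes in cortex, 0.618% in hippocampus and 8.87% over both. The median log2 fold change of CD51+ over CD51- was -5.57 for the 10 genes and -0.03 for all tested genes in cortex, and -4.84 against -0.22 in hippocampus, with the same medians when Zc3h12a, which had no count in CD51+ cells, was set to its bound. Groups did not overlap, with all 3 CD51+ libraries below all 3 CD51- libraries, for 9 of the 10 genes in cortex (16.6% of all tested genes lay lower in this way), the exception being Zfp36l1. The same held for 9 of 10 in hippocampus (16.7% of all tested genes), where the exception was Zfp36l2, and all 6 CD51+ libraries lay below all 6 CD51- libraries for 8 of 10 (6.98%). In hippocampus the count of calls was 3 without CD51+ replicate 2.

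**Figure D1:**
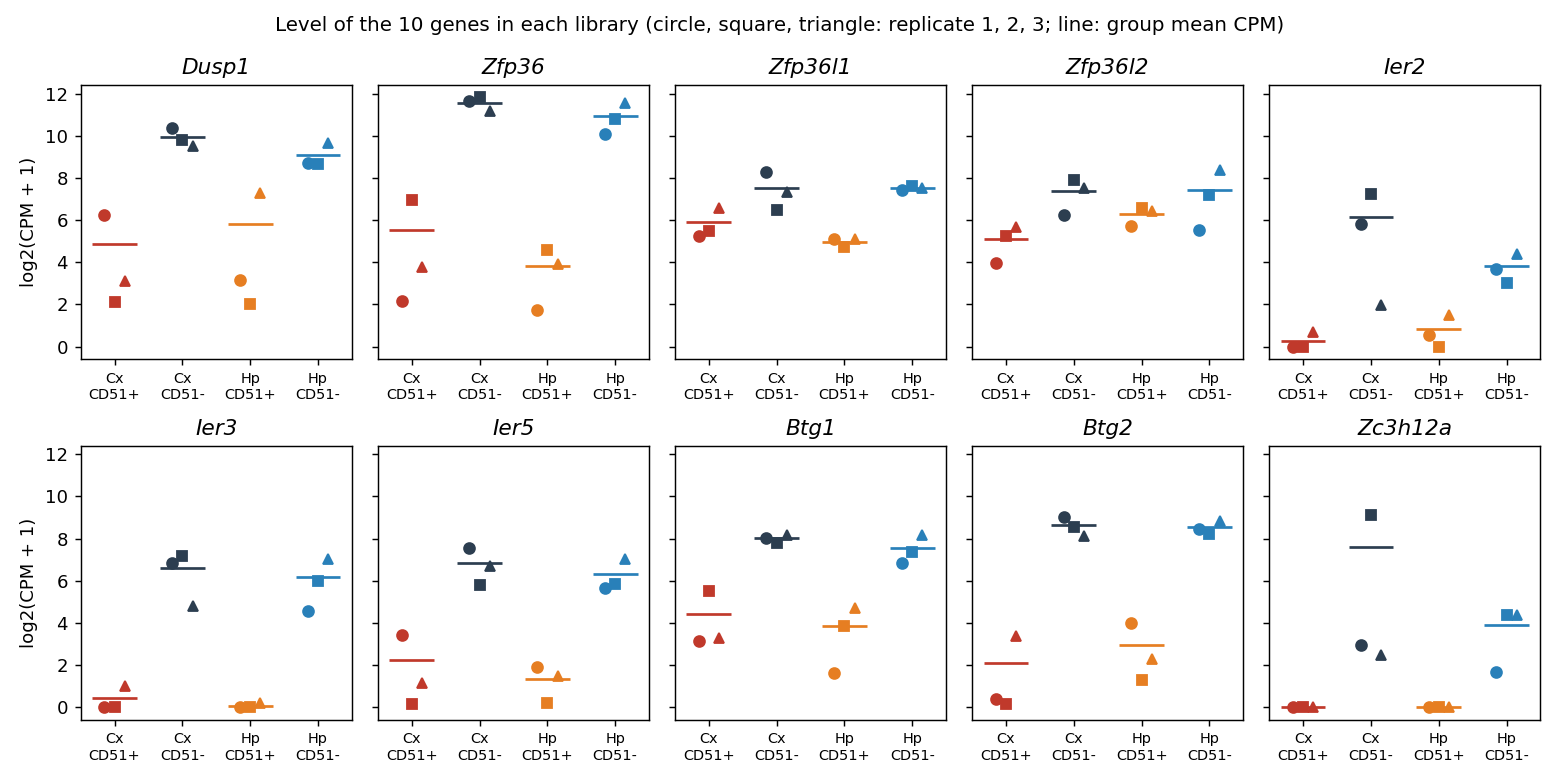
Level of each of the 10 genes in every library as log2(CPM + 1), by group (Cx, cortex; Hp, hippocampus), with circles, squares and triangles for replicates 1, 2 and 3 and a line at the group mean. The CD51- libraries of Zfp36 reach 3609.8 CPM while its CD51+ libraries stay at or below 121 CPM, and Zc3h12a is at 0 in all 6 CD51+ libraries.

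Markers of other cell types moved with the classes. The summed level of 15 astrocyte markers (Slc1a2, Aqp4, Gja1 and others) was 64577 to 86061 CPM in CD51+ cortex, against 5163 to 15193 CPM in CD51- cortex, and 51638 to 67501 CPM in CD51+ hippocampus, against 14628 to 17478 CPM in CD51- hippocampus. That of 14 microglial markers (Cx3cr1, P2ry12, C1qa and others) ran the other way, at 340 to 1019 CPM in CD51+ and 8665 to 12064 CPM in CD51- cortex, and at 207 to 1719 CPM in CD51+ and 5625 to 8367 CPM in CD51- hippocampus. EdgeR called 13 of the astrocyte markers higher in CD51+ cortex and 9 in CD51+ hippocampus. Of the 14 microglial markers, edgeR called 9 lower in CD51+ cortex, 7 lower in CD51+ hippocampus and 13 lower over both regions. Aif1 was at 0 in 5 of the 6 CD51+ libraries and Trem2 in 3, while no microglial marker was at 0 in a CD51- library. Oligodendrocyte markers (10 genes) summed to 2720 to 2854 CPM in CD51+ and 33217 to 63816 CPM in CD51- cortex, above the astrocyte markers of those same CD51- libraries. In hippocampus they summed to 1253 to 4935 CPM in CD51+ and 6877 to 37918 CPM in CD51- libraries. Mbp made up most of these sums. EdgeR called 5 of the 10 lower in CD51+ cortex and 2 in CD51+ hippocampus. Means of Mog, Mag and Cnp were higher in CD51+ hippocampus, and that of Opalin in CD51+ cortex. Markers of border macrophages and other leukocytes (9 genes) summed to 0.336 to 31.9 CPM in CD51+ and 569 to 777 CPM in CD51- cortex, and to 1.74 to 19.3 CPM in CD51+ and 568 to 731 CPM in CD51- hippocampus. The sums of 10 neuronal markers overlapped in cortex, at 144 to 439 CPM in CD51+ and 138 to 291 CPM in CD51- libraries. Hippocampal sums were 190.5 to 426 CPM in CD51+ and 25.9 to 138 CPM in CD51- libraries. Snap25 made up most of them in CD51+ hippocampus, at 189, 352 and 185 CPM. Means of Syt1, Rbfox3, Stmn2, Gad1 and Gad2 were lower in CD51+ hippocampus, and those of Snap25, Tubb3, Slc17a7, Nefl and Thy1 higher. EdgeR called none of the 8 tested neuronal markers in cortex or hippocampus. Their median on the log2 scale was -0.42 in hippocampus. The sums of 5 markers of oligodendrocyte precursors were 20.5 to 210.4 CPM in CD51+ and 0.599 to 28.2 CPM in CD51- cortex. In hippocampus they were 53.5 to 78.9 CPM in CD51+ and 9.20 to 71.7 CPM in CD51- libraries. Vcan made up most of these sums in CD51+ libraries, and all of them in CD51+ hippocampus. Cspg4, C1ql1 and Gpr17 had counts in CD51- libraries only. Pdgfra averaged 1.08 CPM in CD51+ and 1.07 CPM in CD51- cortex, and 0 against 2.02 CPM in hippocampus. Endothelial and mural markers (8 genes) stayed at or below 25.4 CPM in CD51+ libraries and 251 CPM in CD51- libraries. In these sorted bulk samples fewer cells of a type and less RNA per cell cannot be told apart, and the part of these cell types in the differences of the 10 genes was not tested.

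The 10 genes summed to 147, 248 and 185 CPM in the CD51+ cortex libraries and to 6031, 6336 and 4079 CPM in the CD51- cortex libraries. Hippocampal sums came to 116, 160.5 and 321 CPM in CD51+ cells, against 2259.9, 3109 and 5414 CPM in CD51- libraries. CD51+ hippocampus replicate 3, the highest of its group here, also had the highest microglial marker sum in that group (1719 CPM, against 207 and 227 CPM). Dusp1 alone held 157 of its 321 CPM. Ier2, Ier3 and Btg1 were also highest in replicate 3, but Zfp36, Zfp36l1, Zfp36l2, Ier5 and Btg2 were highest in another replicate. Per 1000 CPM of the microglial markers, the sum of the 10 genes was lowest in replicate 3 (187, against 558 and 706). The link was not tested.

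The 250 bases before the start site are shown for 4 of the genes that fell, because each holds a motif of a different inducible factor family or, in Dusp1 and Btg2, the same one (RefSeq, GRCm38.p6, 5′ to 3′ on the strand of the gene). Capitals mark the motifs: the cAMP response element palindrome TGACGTCA and its shorter core TGACG in Dusp1 (chr17:26508473-26508722, minus strand) and Btg2 (chr1:134079156-134079405, minus strand), a CArG box, the binding motif of serum response factor, in Zfp36 (chr7:28379229-28379478, minus strand), and a kappa-B site in Ier3 (chr17:35821463-35821712, plus strand).
Dusp1: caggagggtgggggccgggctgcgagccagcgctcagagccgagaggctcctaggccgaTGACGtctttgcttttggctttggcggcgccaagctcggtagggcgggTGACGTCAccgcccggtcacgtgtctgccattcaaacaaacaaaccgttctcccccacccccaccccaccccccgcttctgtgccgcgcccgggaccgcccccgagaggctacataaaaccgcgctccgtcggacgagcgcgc
Btg2: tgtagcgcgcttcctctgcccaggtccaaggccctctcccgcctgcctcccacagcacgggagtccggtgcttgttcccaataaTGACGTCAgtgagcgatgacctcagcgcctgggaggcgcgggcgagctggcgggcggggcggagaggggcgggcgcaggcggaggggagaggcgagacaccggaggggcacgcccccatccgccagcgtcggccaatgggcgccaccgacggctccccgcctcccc
Zfp36: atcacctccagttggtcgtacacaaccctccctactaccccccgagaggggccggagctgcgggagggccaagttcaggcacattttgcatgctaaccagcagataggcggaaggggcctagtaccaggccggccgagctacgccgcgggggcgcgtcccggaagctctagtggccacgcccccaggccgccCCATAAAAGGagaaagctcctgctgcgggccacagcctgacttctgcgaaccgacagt
Ier3: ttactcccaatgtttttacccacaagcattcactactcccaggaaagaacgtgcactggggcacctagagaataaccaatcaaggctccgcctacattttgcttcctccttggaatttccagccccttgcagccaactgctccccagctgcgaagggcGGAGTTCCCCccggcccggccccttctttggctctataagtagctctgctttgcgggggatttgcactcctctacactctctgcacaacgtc
RefSeq windows from 250 bases before to 50 bases after the start site were at hand for 8 of the 10 genes (not Zfp36l2 and Ier2), and motifs were searched on both strands. The palindrome was in 2 of these 8 windows, at bases -143 to -136 of Dusp1 and -166 to -159 of Btg2, and in 1.79% of all 32851 windows. It contains an overlapping core on either strand, and TGACG was in 4 of the 8 (Dusp1, Btg1, Btg2 and Zc3h12a), against 20.8% of all windows. The CArG box, at -58 to -49, was in Zfp36 alone of the 8 and in 1.63% of all windows. The kappa-B site, at -92 to -83, was in Ier3 alone of the 8 and in 4.51% of all windows. An AP-1 site TGANTCA was in Zfp36l1 (7.81% of all windows) and TATAAA in Zfp36l1 and Btg1 (13.6%). These are matches of letters and say nothing of binding in these cells.

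Gene coordinates are in mm10, as in the count table. Dusp1 (ENSMUSG00000024190.7; chromosome 17, 26505590 to 26562128, minus strand), the MAP kinase phosphatase of the set, was among the most abundant of the 10 genes in CD51- cells. The CD51+ cortex libraries held 74.2, 3.33 and 7.51 CPM (mean 28.4 ± 39.8, SD, n = 3), against 1305, 889 and 727 CPM in CD51- cortex (mean 974 ± 298). The groups did not overlap, and CD51+ replicate 1 stood above the other two of its group. Hippocampal levels of Dusp1 were 7.80, 3.09 and 157 CPM in CD51+ cells, against 413, 401 and 803 CPM in CD51- cells. There, too, the groups did not overlap, and CD51+ replicate 3 stood well above the others of its group. Dusp1 fell by 5.10 ± 1.20 (SE) on the log2 scale in CD51+ cortex (edgeR adjusted p = 0.00797), and by 7.49 without CD51+ replicate 1. The log2 fold change in hippocampus, -3.27 ± 1.10, did not pass (edgeR adjusted p = 0.109), and it was -6.65 without CD51+ replicate 3 (edgeR adjusted p = 0.00112). DESeq2, limma-voom and the fit without a filter called it lower in CD51+ hippocampus with all libraries. Over both regions Dusp1 fell by 4.18 ± 0.81 (edgeR adjusted p = 0.00081), with values of -5.38 without cortex CD51+ replicate 1 and -5.87 without hippocampus CD51+ replicate 3. Dusp1 exons share 11 bases with Ergic1, 0.3% of their length, which unstranded counting cannot assign.

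Zfp36 (ENSMUSG00000044786.6; chromosome 7, 28376784 to 28380253, minus strand), which binds AU-rich elements, had the highest level of the 10 genes per length in CD51- cells of both regions. The CD51+ cortex libraries held 3.53, 121 and 12.785 CPM of it (mean 45.8 ± 65.4, SD, n = 3), against 3191, 3609.8 and 2298 CPM in CD51- cortex (mean 3033 ± 669.9). Replicate 2 was the high library of the CD51+ group, still far under the lowest CD51- library. In hippocampus the CD51+ libraries were at 2.29, 22.5 and 14.2 CPM and the CD51- libraries at 1079.9, 1759 and 3050.1 CPM, again without overlap. Zfp36 fell by 6.05 ± 1.01 on the log2 scale in CD51+ cortex (edgeR adjusted p = 0.000519) and by 7.23 ± 1.07 in CD51+ hippocampus (edgeR adjusted p = 0.000312). Without cortex CD51+ replicate 2 the cortical value was -8.54, and without hippocampus CD51+ replicate 2 the hippocampal value was -7.88. With limma-voom the hippocampal call was lost (adjusted p = 0.0941). Another gene, Gm44710, covers 125 bases of the Zfp36 exons (3.6%).

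The paralogs Zfp36l1 and Zfp36l2 fell over both regions, with fold changes nearer to 0. Zfp36l1 (ENSMUSG00000021127.7; chromosome 12, 80107754 to 80113013, minus strand) was at 36.9, 43.0 and 94.8 CPM in CD51+ cortex, against 306, 89.4 and 161 CPM in CD51- cortex, where CD51+ replicate 3 lay above CD51- replicate 2. Its hippocampal levels were 33.3, 25.4 and 33.2 CPM in CD51+ cells, against 173, 198 and 182 CPM in CD51- cells, which did not overlap. Its log2 fold change was -1.67 ± 0.72 in cortex (edgeR adjusted p = 0.112) and -2.59 ± 0.74 in hippocampus (edgeR adjusted p = 0.0540). Over both regions it fell by 2.13 ± 0.51 (edgeR adjusted p = 0.00524). Zfp36l2 (ENSMUSG00000045817.8; chromosome 17, 84183931 to 84187947, minus strand) was at 14.4, 36.3 and 49.5 CPM in CD51+ cortex, against 75.5, 239 and 182 CPM in CD51- cortex, without overlap. The hippocampal levels of Zfp36l2 were 52.1, 94.5 and 83.9 CPM in CD51+ cells, against 44.8, 144 and 330.3 CPM in CD51- cells, where CD51- replicate 1 lay below all 3 CD51+ libraries. The log2 fold changes of Zfp36l2 were -2.31 ± 0.82 in cortex (edgeR adjusted p = 0.0652) and -1.17 ± 0.79 in hippocampus (edgeR adjusted p = 0.482), where the value was -0.32 without CD51- replicate 3. Over both regions it fell by 1.74 ± 0.57 (edgeR adjusted p = 0.0299), a call that was lost with limma-voom, under the replicate block and when any of 7 libraries was left out: cortex CD51+ replicates 1 and 2, cortex CD51- replicate 2, all 3 hippocampus CD51+ libraries and hippocampus CD51- replicate 3. Reads over 105 bases of its exons (3.0%) are shared with AC132455.1.

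Zfp36 took a smaller share of its family in every CD51+ library. Per kilobase of exon, Zfp36 made up 5.82%, 58.6% and 7.46% of the 3 genes together in the CD51+ cortex libraries and 88.1%, 91.4% and 86.3% in the CD51- cortex libraries. In hippocampus its share was 2.49%, 15.6% and 10.5% in CD51+ and 81.5%, 82.6% and 85.1% in CD51- libraries. The ranges of the classes did not overlap in either region. Zfp36l1 held 70.8%, 24.1% and 64.2% of the family in CD51+ cortex, and Zfp36l2 held 55.6%, 64.1% and 61.0% in CD51+ hippocampus.

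**Figure D2:**
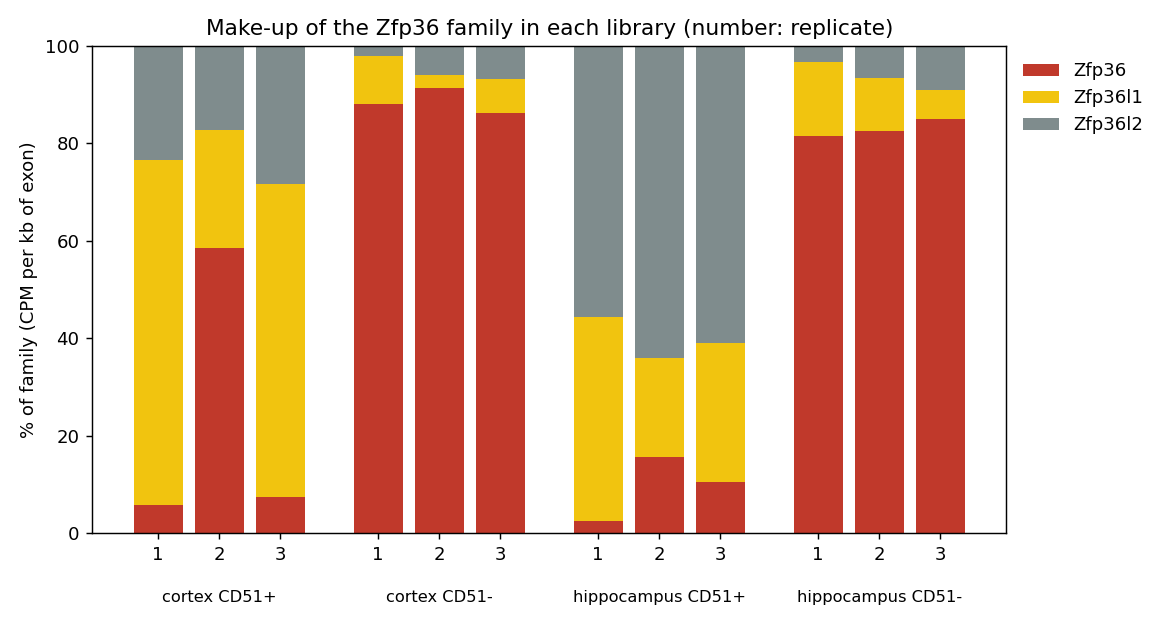
Share of Zfp36, Zfp36l1 and Zfp36l2 in their summed CPM per kilobase of exon in each library, as stacked bars that add to 100%, with the replicate number under each bar. Zfp36 fills 81.5% to 91.4% of the bar in the CD51- libraries and 2.49% to 58.6% in the CD51+ libraries, where replicate 2 of cortex is the highest.

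All 3 family members carry in their own 3′ UTR the 9 bases TTATTTATT, the core of the AU-rich element that the Zfp36 proteins bind, and so does Dusp1, at 2 places. These sites are shown with their flanks because the regulators and Dusp1 share a sequence of the kind that the family reads (GENCODE vM21, mm10 coordinates, minus strand in all 5, 5′ to 3′, the 9 bases in capitals): Dusp1 at chr17:26506160-26506186 and chr17:26505871-26505897, Zfp36 at chr7:28376952-28376978, Zfp36l1 at chr12:80108168-80108194 and Zfp36l2 at chr17:84184915-84184941.
Dusp1 site a: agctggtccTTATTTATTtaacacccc
Dusp1 site b: tttttacctTTATTTATTtttgtgtag
Zfp36: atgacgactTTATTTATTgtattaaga
Zfp36l1: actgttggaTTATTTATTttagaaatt
Zfp36l2: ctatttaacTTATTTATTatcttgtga
In the transcript with the longest 3′ UTR of each gene, the 9 bases were present in 4 of the 10 genes (40.0%), against 7.79% of 20659 genes with a 3′ UTR and 9.56% of the 11899 whose 3′ UTR is within the range of lengths of the 10. The shorter pentamer ATTTA, which the 9 bases contain, occurred at a median of 3.12 per kilobase of 3′ UTR in the 10 genes, against 1.28 in all genes and 1.54 in those of like length. It was most frequent in Ier3 (8.16 per kilobase) and Dusp1 (5.8 per kilobase) and was not found in Ier2. The searches were chosen after the levels were known, and a match does not show that a protein binds it.

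Zc3h12a (ENSMUSG00000042677.7; chromosome 4, 125118423 to 125127840, minus strand), the endonuclease of the set, had no count in any of the 6 CD51+ libraries. In cortex the CD51- libraries were at 6.75, 562 and 4.67 CPM, so that replicate 2 held nearly all of the 4799 counts of the group. In hippocampus they were at 2.22, 19.5 and 20.1 CPM, 459 counts in all. Against a floor of 3 counts over the CD51+ group, its level was at least 1105-fold lower in CD51+ cortex (edgeR adjusted p = 0.00183) and at least 80.1-fold lower in CD51+ hippocampus (edgeR adjusted p = 0.0245). Without CD51- replicate 2 the cortical call was lost (edgeR adjusted p = 0.0983), and the bound, on the 112 counts that remained, was 37.3-fold. DESeq2 gave no adjusted p for Zc3h12a, so its counts refer to the other 9 genes. The cortical bound was 644-fold without CD51+ replicate 2 and 1933-fold without CD51- replicate 1, and the hippocampal one 46.5-fold without CD51+ replicate 2 and 53.2-fold without CD51+ replicate 3. The hippocampal call was lost with limma-voom, in a fit of the hippocampus libraries alone, and without cortex CD51- replicate 2, hippocampus CD51+ replicate 2 or hippocampus CD51+ replicate 3.

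Btg2 (ENSMUSG00000020423.6; chromosome 1, 134075170 to 134079120, minus strand), also a p53 target, was at 0.336, 0.128 and 9.33 CPM in CD51+ cortex, against 525, 376 and 281 CPM in CD51- cortex. Btg2 in hippocampus stood at 14.9, 1.48 and 3.85 CPM in CD51+ cells, against 351, 294 and 460.3 CPM in CD51- cells. The lowest CD51- library was above the highest CD51+ library in both regions by more than an order of magnitude. Btg2 fell by 6.94 ± 1.24 on the log2 scale in CD51+ cortex (edgeR adjusted p = 0.000969) and by 5.78 ± 1.17 in CD51+ hippocampus (edgeR adjusted p = 0.00575). Without cortex CD51+ replicate 3 that group held 3 counts, a level 1913-fold lower with a 95% counting interval of 655 to 9279, and the hippocampal value was -7.11 without hippocampus CD51+ replicate 1. Btg2 kept its call in cortex, in hippocampus and over both regions under every alternative tried, as did Ier3.

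Btg1 (ENSMUSG00000036478.8; chromosome 10, 96617006 to 96622809, plus strand), its close paralog, had 7.72, 44.1 and 8.73 CPM in CD51+ cortex, against 264, 219.8 and 292 CPM in CD51- cortex. For hippocampus the values were 2.06, 13.4 and 24.8 CPM in CD51+ cells, against 112.5, 167 and 289 CPM in CD51- cells. The groups did not overlap in either region. Btg1 fell by 3.67 ± 0.92 on the log2 scale in CD51+ cortex (edgeR adjusted p = 0.0123) and fell by 3.81 ± 0.93 in CD51+ hippocampus (edgeR adjusted p = 0.0220). The value was -4.97 without cortex CD51+ replicate 2 and -4.59 without hippocampus CD51+ replicate 3. The call was lost in cortex without CD51+ replicate 1 or 3, and in hippocampus without CD51+ replicate 1 or 2 or CD51- replicate 3. Per kilobase of exon, Btg2 made up 64.9% to 79.3% of the pair in CD51- cortex and 75.4% to 85.7% in CD51- hippocampus. In CD51+ libraries its share ranged from 0.556% to 67.3% in cortex and from 17.5% to 93.3% in hippocampus, so no order of the pair held there.

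Ier3 (ENSMUSG00000003541.6; chromosome 17, 35821684 to 35822923, plus strand), a regulator of apoptosis and a target of NF-kappa-B, was nearly absent from CD51+ libraries. Cortex had 0, 0 and 1.01 CPM in CD51+ libraries, against 114, 146 and 26.99 CPM in CD51- libraries. Hippocampus had 0, 0 and 0.168 CPM in CD51+ libraries, against 22.4, 62.6 and 131 CPM in CD51- libraries. In both regions the only counts of CD51+ cells came from replicate 3. Ier3 fell by 8.18 ± 1.69 on the log2 scale in CD51+ cortex (edgeR adjusted p = 0.00292), with the value at -7.55 without CD51+ replicate 2. Without CD51+ replicate 3 that group had no count, and the level was at least 466-fold lower. In hippocampus the 1 count of the CD51+ group stood against 2391 in the CD51- group, a level 1251-fold lower with a 95% counting interval of 224 to 49432 (edgeR adjusted p = 0.0028). That ratio was 734-fold without CD51- replicate 3 and 727-fold without CD51+ replicate 2, and without CD51+ replicate 3 the level was at least 277-fold lower.

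Ier5 (ENSMUSG00000056708.5; chromosome 1, 155096361 to 155099636, minus strand), an activator of heat shock factor, was at 9.74, 0.128 and 1.22 CPM in CD51+ cortex, against 189, 55.4 and 102 CPM in CD51- cortex. Ier5 in hippocampus stood at 2.75, 0.134 and 1.84 CPM in CD51+ cells, against 49.0, 56.2 and 128.5 CPM in CD51- cells. Groups did not overlap, and replicate 2 was the lowest CD51+ library in both regions. Ier5 fell by 4.96 ± 1.37 on the log2 scale in CD51+ cortex (edgeR adjusted p = 0.0216) and by 5.64 ± 1.42 in CD51+ hippocampus (edgeR adjusted p = 0.0269). The values were -7.46 without cortex CD51+ replicate 1 and -6.30 without hippocampus CD51+ replicate 1. The cortical call was lost without CD51+ replicate 2 or 3 or CD51- replicate 1, and the hippocampal call without any of the CD51+ libraries or CD51- replicate 3.

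Ier2 (ENSMUSG00000053560.5; chromosome 8, 84661331 to 84662854, minus strand), a nuclear immediate early protein, was at 0, 0 and 0.609 CPM in CD51+ cortex, against 55.7, 150.1 and 2.92 CPM in CD51- cortex. The hippocampal levels were 0.459, 0 and 1.84 CPM in CD51+ cells, against 11.9, 7.06 and 19.8 CPM in CD51- cells. Its CD51- cortex libraries spread more widely than those of any other member but Zc3h12a. In cortex 3 counts in the CD51+ group stood against 1933 in the CD51- group, a level 445-fold lower with a 95% counting interval of 152 to 2159 (edgeR adjusted p = 0.0171). That call was lost without cortex CD51+ replicate 1, CD51+ replicate 2 or CD51- replicate 2, with ratios of 303-fold, 259-fold and 226-fold. Without CD51+ replicate 3 its group had no count, and the level was at least 328-fold lower. In hippocampus the log2 fold change of -4.05 ± 1.80 did not pass (edgeR adjusted p = 0.217), although DESeq2 called it. It was -3.46 without CD51+ replicate 2, and without CD51+ replicate 3, which left 2 counts, the level was 76.5-fold lower with a counting interval of 21.0 to 633. Over both regions Ier2 fell by 6.24 ± 1.42 (edgeR adjusted p = 0.00343), with values of -8.14 without cortex CD51+ replicate 3 and -7.16 without hippocampus CD51+ replicate 3.

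**Figure D3:**
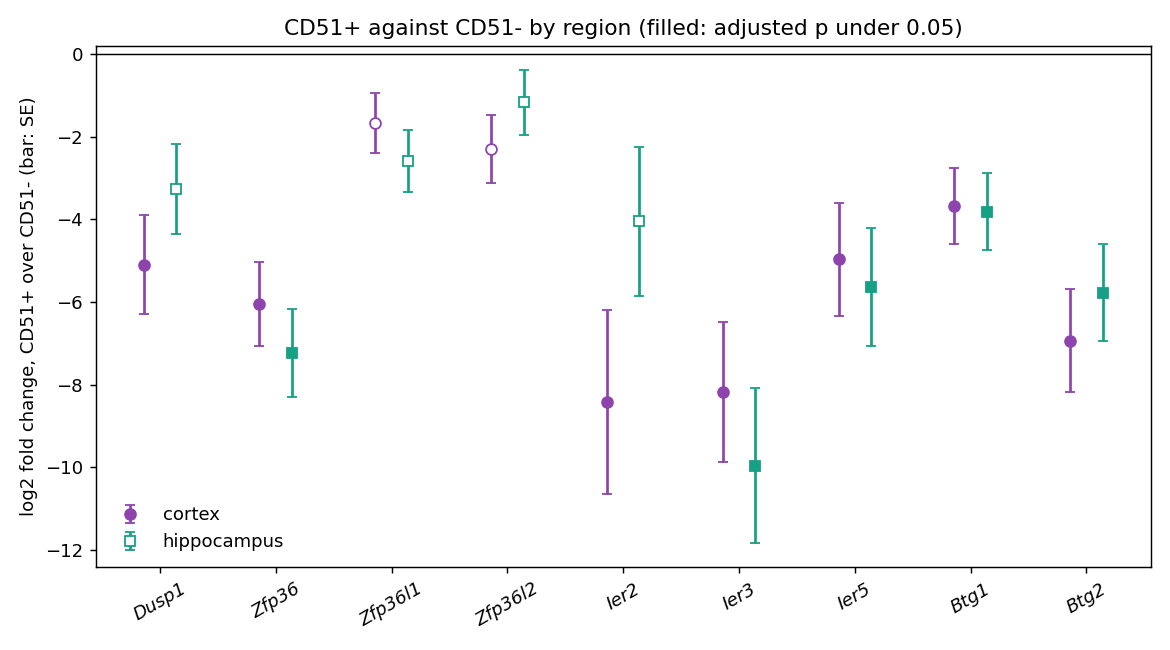
Log2 fold change of CD51+ over CD51- cells in cortex (circles) and hippocampus (squares) for 9 of the genes, with bars of 1 SE and filled symbols for an edgeR adjusted p under 0.05. All 18 values lie below 0, those of Zfp36l1 and Zfp36l2 nearest to it. Zc3h12a, with no count in CD51+ cells, is not drawn, and Ier2 in cortex and Ier3 in hippocampus rest on 3 counts and 1 count in the CD51+ group.

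Levels set side by side per kilobase of exon had few neighbours in order whose ranges did not overlap. In CD51- cortex Zfp36 averaged 874 ± 193 CPM per kilobase (SD, n = 3), Dusp1 294 ± 90.0 and Btg2 144 ± 44.8, and the ranges of these neighbours did not overlap except below Btg2. In CD51- hippocampus the same 3 genes led, with Zfp36 at 566 ± 288, Dusp1 at 163 ± 69.0 and Btg2 at 134 ± 30.8 CPM per kilobase, and only Zfp36 was clear of the next. In CD51+ cells the leading genes were Zfp36l1 in cortex (19.5 ± 10.6 CPM per kilobase) and Zfp36l2 in hippocampus (21.8 ± 6.25), and each overlapped the next gene in the order. The other neighbours in that order overlapped in every group except 2 pairs, Zfp36l1 above Zfp36 in CD51+ hippocampus and Ier5 above Ier2 in CD51- hippocampus. Across the 12 libraries the 45 pairs of the 10 genes had Pearson correlations of log2(CPM + 1) between 0.45 (Zfp36l1 and Zfp36l2) and 0.98 (Zfp36 and Btg1), with a median of 0.81. All pairs share the libraries and the split into classes, so these are descriptions.

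No difference between the regions passed the test for these genes. None of the 10 genes was called in hippocampus against cortex averaged over the classes by edgeR, DESeq2 or limma-voom, where edgeR called 0.19% of all genes, and none lay without overlap in either direction, as 0.0872% of all genes did with hippocampus lower and 0.793% with hippocampus higher. Zfp36 had the smallest unadjusted p (0.0478), the only one of the 10 under 0.05, with a log2 fold change of hippocampus over cortex of -1.22 ± 0.58 (edgeR adjusted p = 0.324). Without the filter on low counts that adjusted p was 0.0425, and without cortex CD51+ replicate 2 the value was 0.03. A difference between the regions in the CD51 effect was not detected either: edgeR called none of the 10 in the interaction, none at an unadjusted p under 0.05, and 0% of all genes, and DESeq2 and limma-voom called none. The largest of these differences of differences was that of Ier2, 4.37 ± 2.45 on the log2 scale for hippocampus minus cortex (edgeR adjusted p = 0.467). It was 2.54 without hippocampus CD51+ replicate 3 and 8.17 without cortex CD51+ replicate 3.

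Set against the microglial markers of the same library, some of the 10 genes lay lower in CD51+ cells, some higher and some overlapped. Each level was divided by the summed CPM of the 14 markers and is given per 1000 CPM of that sum, a measure chosen after the levels were seen. Zfp36 was at 10.4 to 119 in CD51+ and 265 to 307 in CD51- cortex, and at 8.28 to 99.1 in CD51+ and 192 to 365 in CD51- hippocampus. By ratio 4 of the 10 (Zfp36, Ier3, Btg2 and Zc3h12a) lay lower without overlap in CD51+ cortex, as did 6.21% of all tested genes. In CD51+ hippocampus 3 did (Zfp36, Ier3 and Zc3h12a), as did 5.78% of all tested genes. The markers themselves did not fall alike. In cortex the log2 fold change was -2.48 for Cx3cr1 and -7.87 for Tyrobp, with Zfp36 between them at -6.05. A lower ratio therefore does not set a gene apart from microglial content, whose part was not tested. For Zc3h12a depth limits the ratio: 1 count would have been worth 0.0975 to 1.11 in a CD51+ hippocampus library, and its lowest CD51- hippocampus library was at 0.394. In a CD51+ cortex library 1 count would have been worth 0.126 to 0.493, and its lowest CD51- cortex library was at 0.539. Zfp36l1 and Zfp36l2 lay higher in CD51+ cortex (2 of 10, where 47.7% of all tested genes did), and Zfp36l2 in CD51+ hippocampus (1 of 10, where 45.5% did). Zfp36l1 was at 42.2 to 192 in CD51+ and 7.60 to 25.4 in CD51- cortex. Dusp1, Ier2, Ier5 and Btg1 overlapped between the classes in both regions. Btg1, for example, was at 17.7 to 43.3 in CD51+ and 18.7 to 33.7 in CD51- cortex. The sum of the 10 genes was 244 to 432 in CD51+ and 471 to 539 in CD51- cortex, without overlap, and 187 to 706 in CD51+ and 391 to 647 in CD51- hippocampus, with overlap.

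**Figure D4:**
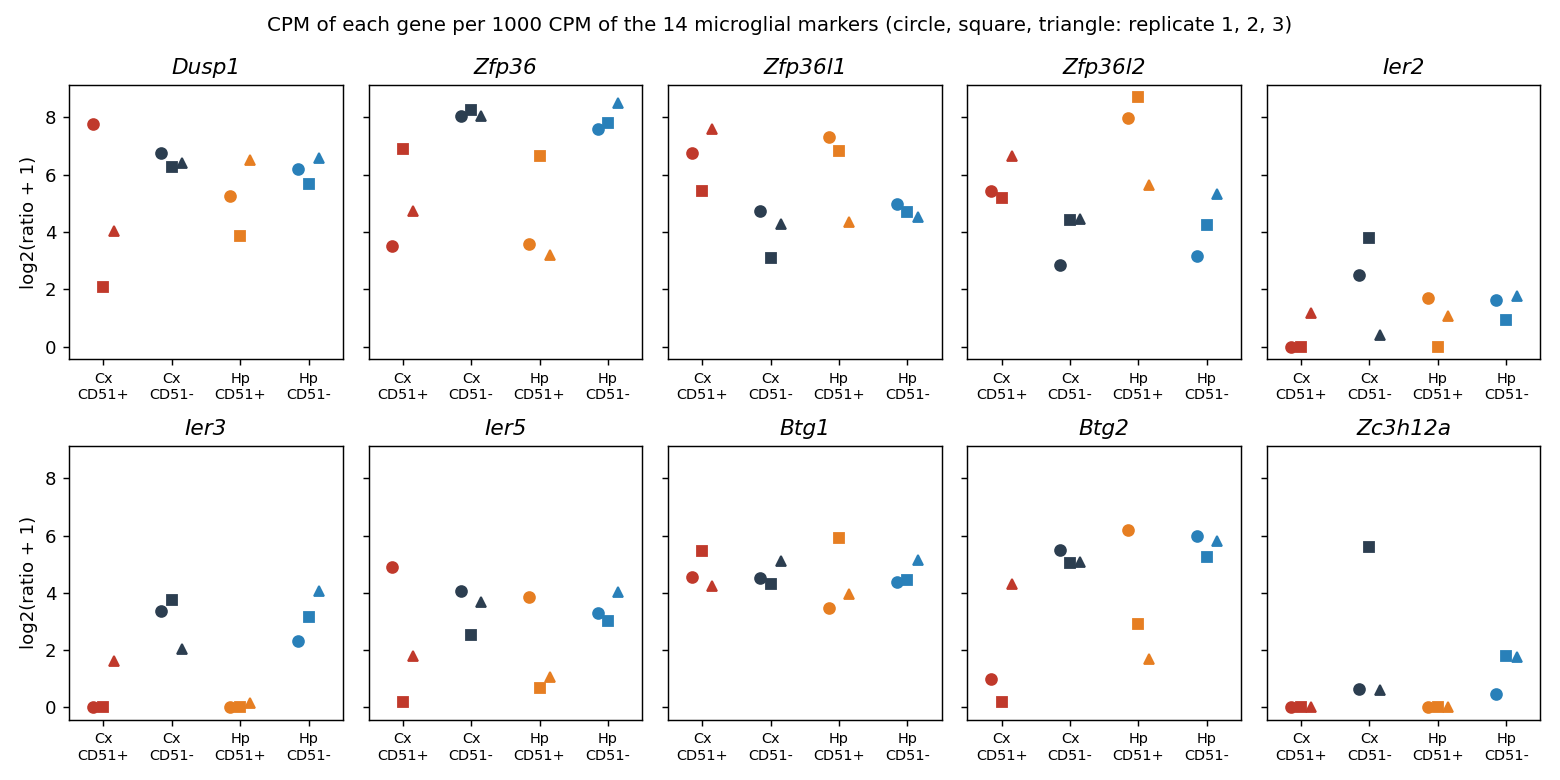
CPM of each gene per 1000 CPM of the 14 summed microglial markers in the same library, as log2(ratio + 1), by group (Cx, cortex; Hp, hippocampus), with circles, squares and triangles for replicates 1, 2 and 3. Zfp36, Ier3 and Zc3h12a lie lower in CD51+ than in CD51- libraries of both regions, Zfp36l2 lies higher, and Dusp1, Ier2, Ier5 and Btg1 overlap.

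The mRNAs that these regulators are known to destroy were lower in CD51+ cells as well. Of 9 known targets of Zfp36 or Zc3h12a, 7 passed the filter (not Il6 and Cxcl1). EdgeR called 7 of them lower in CD51+ cortex (6.27% of all tested genes), 6 in CD51+ hippocampus (2.7%) and 7 over both regions (13.9%). Their median log2 fold changes were -9.06, -9.53 and -9.19. The list was chosen with earlier results of these data known. The part of microglial content in these falls was not tested. Nfkbiz, an atypical nuclear member of the I-kappa-B family, averaged 1.504 ± 0.731 CPM in CD51+ and 791 ± 283 CPM in CD51- cortex (SD, n = 3 each), and fell by 9.04 ± 0.83 on the log2 scale (edgeR adjusted p = 7.67e-07). In hippocampus it fell by 7.15 ± 0.76 (edgeR adjusted p = 6.92e-06). The chemokine Ccl3 fell by 10.12 ± 0.99 in CD51+ cortex (edgeR adjusted p = 1.30e-06) and fell by 10.04 ± 0.99 in CD51+ hippocampus (edgeR adjusted p = 2.19e-06). Il1b fell by 9.15 ± 1.72 in CD51+ cortex (edgeR adjusted p = 0.00145). Tnf had 1 count in CD51+ and 2516 in CD51- hippocampus, a level 1316-fold lower with a 95% counting interval of 236 to 52015 (edgeR adjusted p = 0.00304). Ccl2 had 3 counts in all CD51+ and 4342 in all CD51- libraries, a level 865-fold lower with an interval of 296 to 4194 (edgeR adjusted p = 2.44e-05 over both regions).

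The rest of the decay machinery and of the MAP kinase pathway held fewer calls than the 10 genes. Of the other MAP kinase phosphatases, 8 of 10 were tested and edgeR called none in cortex or hippocampus (3 and 6 at an unadjusted p under 0.05, all lower; DESeq2, with no adjusted p for 3 of the 8, called 3 and 4, limma-voom 0 and 2). Over both regions 4 of these 8 fell, against 13.9% of all tested genes. Among them was Dusp7, which fell by 5.72 ± 1.36 on the log2 scale (edgeR adjusted p = 0.00475). Dusp2 had no count in CD51+ cells and was at least 30.1-fold lower (edgeR adjusted p = 0.0141), and Dusp4 had 1 count against 699, a level 418-fold lower with an interval of 74.7 to 16516 (edgeR adjusted p = 0.0164). The median log2 fold change of these phosphatases was -2.83 in cortex and, with the 4 genes that had no CD51+ count at their bound, -4.27 in hippocampus. Over both regions it was -5.29, with Dusp2 at its fitted value, close to the -5.77 of the 10 genes. Of 8 tested MAP kinases and their effectors, Mapk10 (JNK3, a neural form) rose by 3.05 ± 0.90 in CD51+ cortex (edgeR adjusted p = 0.0327) and by 2.36 ± 0.62 over both regions (edgeR adjusted p = 0.0096). Mapkapk2 (MK2, the kinase that inactivates Zfp36) fell by 2.78 ± 0.72 over both regions (edgeR adjusted p = 0.00829), and Mapk14 (p38 alpha) by 2.83 ± 1.02 (edgeR adjusted p = 0.0469). With limma-voom, with the cortex libraries alone and without cortex CD51+ replicate 1 or 2 or CD51- replicate 2 or 3, no gene of the list was called higher in cortex, and DESeq2 called 2 lower there. Over both regions the number called lower was 1 with upper-quartile factors and without any of 10 of the 12 libraries. In hippocampus none of the 8 was called by edgeR (2 at an unadjusted p under 0.05; DESeq2 2, limma-voom 0).

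Among 13 subunits of the CCR4-NOT and PAN deadenylases, edgeR called none in cortex or hippocampus (2 and 2 at an unadjusted p under 0.05; DESeq2, with no adjusted p for Pan2, 1 and 0, limma-voom 1 and 0). Over both regions Pan3 alone of the 13 fell, where 13.9% of all tested genes did. Its fall was 2.02 ± 0.61 on the log2 scale (edgeR adjusted p = 0.0199), with a median of -0.84 for the 13. No call was made by edgeR among 3 BTG/Tob relatives, 5 tested relatives and partners of Zc3h12a, 7 tested decapping and 5′ decay factors or 7 other binders of AU-rich elements, in cortex, in hippocampus or over both. At an unadjusted p under 0.05 over both regions there were 2, 2, 1 and 0 in those lists, and DESeq2 called 2, 2, 0 and 0 and limma-voom 0, 2, 0 and 0. Their median log2 fold changes over both regions were -2.01, -1.002, -1.44 and -0.62. The median of the 10 genes was -5.77, and that of all tested genes was -0.14. In the single regions these 4 lists held 1 gene at an unadjusted p under 0.05, a relative of Zc3h12a in hippocampus, and neither DESeq2 nor limma-voom made a call. Between the regions no gene of the lists, the targets included, was called by edgeR or limma-voom, while DESeq2 called 1 phosphatase lower in hippocampus. At an unadjusted p under 0.05 there were 3 phosphatases and 1 gene each of the relatives of Zc3h12a, the deadenylases and the decapping factors.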

How the data were processed

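RNA from sorted cells was made into libraries with a low-input kit from 10 ng of RNA and sequenced from both ends, per the labels' protocols. The deposited values are raw counts of read pairs. Per the file headers, featureCounts 2.0.4 made them for each GENCODE vM25 gene, pooling its exons, ignoring strand, skipping secondary alignments and dropping pairs split between chromosomes. Genes that overlap cannot be separated by such counting. Per the submitters' processing notes, STAR, mm10 and DESeq2 1.40.2 were used. Each gene's exon length, which the authors deposited beside the counts, served for CPM per kilobase, the only scale on which genes are compared with each other.

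From the counts, edgeR 4.0.16 in R 4.3.3 kept 12613 genes (filterByExpr by group, minimum count 10, minimum total 15), all 10 genes among them, and fitted all 12 libraries at once with 4 group levels, TMM factors and robust off. The quasi-likelihood F test gave 5 contrasts: the CD51 difference in each region, its mean over the regions, the difference of hippocampus from cortex, and the interaction. Benjamini-Hochberg adjustment ran over all tested genes, with a threshold of 0.05. The common dispersion was 1.64. The SE of a log2 fold change is its size divided by the square root of F. For a gene with 0 counts in a group the fold is a bound at 3 counts over the group, and for 1 to 3 counts it is a ratio with an exact 95% binomial interval. Both cover counting error only. The fit was checked on counts simulated with its own dispersions, for the sign and size of known fold changes. No rate of false calls is given here. Symbols came from a name table that held 55141 of the 55401 gene IDs.

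Members and lists were chosen with earlier results of these data known. The related lists were other MAP kinase phosphatases, MAP kinases and MK2, BTG/Tob relatives, Zc3h12a relatives and partners, CCR4-NOT and PAN deadenylases, decapping and 5′ decay factors, other binders of AU-rich elements, and known Zfp36 or Zc3h12a targets. The marker lists were those of astrocytes, microglia, border macrophages and other leukocytes, oligodendrocytes, their precursors, neurons, and endothelial and mural cells. Of each related list up to 3 called genes per contrast, by smallest p, are named, and of all other genes the 5 most like the 10. The ratios to microglial markers and the motif searches were added after the levels were seen.

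The alternatives were DESeq2 1.42.0, limma-voom (limma 3.58.1), RLE and upper-quartile factors, no filter, a minimum of 1 CPM in 3 libraries, mitochondrial genes left out, a replicate block, only the libraries of a region, and each library left out. Plots used matplotlib 3.10.9.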

Additional observations from a re-analysis of the deposited data

How the results depend on the processing

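In cortex, in hippocampus and over both regions no fold change of the 10 genes changed sign under any alternative, and their calls numbered 6 to 8, 3 to 8 and 9 to 10. Leaving out a library gave the same ranges (3 in hippocampus without CD51+ replicate 2), and 0 between regions and in the interaction. Over all tested genes, deviations from the group means of CD51+ and CD51- libraries with the same number correlated at -0.01 to 0.02 within a region. With 3 libraries a group and this much spread, that cannot show whether the numbers mark shared animals. Cortex and hippocampus libraries were not compared in this way. The replicate block gave 8, 7 and 9 calls in cortex, in hippocampus and over both, and 0 between regions and in the interaction. Zfp36l1 gained a call in hippocampus with DESeq2, with mitochondrial genes left out, in the fit of hippocampus libraries alone, and without cortex CD51- replicate 2 or 3. Zfp36l2 gained one in cortex with DESeq2 and lost that over both regions under the block. Dusp1 gained one in hippocampus under the block and without cortex CD51+ replicate 1 or cortex CD51- replicate 3. DESeq2 gave no adjusted p for Zc3h12a and called 8, 8 and 9 of the other 9 genes. With no filter 1 of the 10 (Zfp36) was called between the regions.

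Signs turned only in the region difference and the interaction, where the main values were not called. Between the regions Dusp1 turned to -0.00834 with DESeq2, -0.00823 with RLE factors, -0.32 with limma-voom and -0.19 with the replicate block. In the interaction Ier3 turned to 0.0313 and Ier5 to 0.26 with limma-voom, and Ier5 to 0.14 with the replicate block. With single libraries left out, the region difference ran from -1.62 to 1.26 for Dusp1, -1.55 to 0.0344 for Zfp36, -1.18 to 1.64 for Ier2, -2.44 to 0.94 for Ier3, -1.23 to 0.34 for Ier5, -0.92 to 0.14 for Btg1, -0.18 to 2.36 for Btg2 and -2.18 to 0.67 for Zc3h12a. The interaction ran from -1.57 to 4.22 for Dusp1, -1.85 to 1.32 for Zfp36, 2.54 to 8.17 (no change of sign) for Ier2, -4.08 to 2.68 for Ier3, -1.33 to 1.82 for Ier5, -0.92 to 1.16 for Btg1, -0.17 to 4.86 for Btg2 and -1.34 to 4.36 for Zc3h12a. The cause was not tested.

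Over all genes, calls in cortex numbered 1428, but 3219 with DESeq2, 2164 with limma-voom and 879 to 935 without a CD51+ cortex library. In hippocampus they numbered 418, but 1457 with DESeq2, 885 with limma-voom, 636 with no filter, and 269 and 198 without CD51+ replicates 1 and 2. Between the regions they numbered 24, but 723 with DESeq2, 53 with limma-voom, 292 with no filter and 11 to 69 with a library left out. In the interaction there were 0, but 522 with DESeq2, 146 with no filter, 7 with the block and up to 42 with a library left out. Upper-quartile factors moved the median log2 fold change of all genes to 0.01 in hippocampus (from -0.22) and to 0.04 over both regions (from -0.14), and no call of the 10 genes changed with them. Depth limits Ier2, Ier3 and Zc3h12a, which had 0 to 13 counts in each CD51+ group.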

Other observations

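The 5 other genes whose levels followed the 10 most closely over the 12 libraries were Icam1, Gpr183, Rgs1, Il10ra and Ccl3, by the Pearson correlation of log2(CPM + 1) with the mean z-score of the 10 genes (0.99 for each). Icam1, an adhesion molecule for leukocytes, averaged 0.541 CPM in CD51+ and 186 CPM in CD51- cortex, and 1.22 CPM in CD51+ and 123 CPM in CD51- hippocampus. Rgs1, a regulator of G protein signalling best known from immune cells, averaged 3.42 CPM in CD51+ and 1166 CPM in CD51- cortex, and 2.37 CPM in CD51+ and 645 CPM in CD51- hippocampus. Il10ra, a chain of the interleukin-10 receptor, averaged 0.394 CPM in CD51+ and 166 CPM in CD51- cortex, and 0.603 CPM in CD51+ and 162 CPM in CD51- hippocampus. Gpr183, an oxysterol receptor of immune cells, averaged 0.394 CPM in CD51+ and 224 CPM in CD51- cortex, and 0.112 CPM in CD51+ and 101 CPM in CD51- hippocampus. The correlations share the libraries and the split between the classes and are given as descriptions.

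The coefficient of variation was larger in CD51+ than in CD51- libraries of both regions for 7 of the 9 genes with counts in both classes. This count was not set against all tested genes. For Ier3 in both regions and Ier2 in cortex, CD51+ counts came from 1 library, which fixes the value at 173%. Counts of these genes, though not of the libraries as a whole, were far fewer in CD51+ libraries. The part of low counts in the spread was not tested. The other two went the other way in a region: Zfp36l1 had 54.6% in CD51+ and 59.4% in CD51- cortex, and Zfp36l2 had 28.7% in CD51+ and 83.7% in CD51- hippocampus. The coefficient of variation of Zfp36 was 143% in CD51+ and 22.1% in CD51- cortex, and 78.1% in CD51+ and 51.0% in CD51- hippocampus. That of Btg2 was 161% in CD51+ and 31.2% in CD51- cortex, and 106% in CD51+ and 22.9% in CD51- hippocampus. Different genes were high in different CD51+ libraries: in cortex Dusp1 and Ier5 peaked in replicate 1, Zfp36 and Btg1 in replicate 2, and Zfp36l1, Zfp36l2, Ier2, Ier3 and Btg2 in replicate 3. The spread was not tested.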
